A study of Caenorhabditis elegans with 4 samples.

Results

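The genes described here encode the core machinery of transcription by RNA polymerase II (Pol II) in C. elegans: the subunits of the polymerase, the TATA-binding protein TBP and its associated factors (TAFs) that form TFIID, the other general initiation factors, the Mediator complex, and the kinases, cyclins T and elongation factors that act on the polymerase. Members were taken by gene name, as all genes named rpb, taf, mdt or gtf with a number, together with 16 genes of these complexes that carry other names, such as ama-1 for the largest polymerase subunit. This rule uses no measured value, although it was set with earlier results of these data known. The rule gave 74 genes, all of them on the array, of 20040 genes measured in all: 12 for Pol II subunits, 19 for TFIID and the TBP family, 11 for other general initiation factors, 25 for Mediator, 5 for kinases and cyclins T and 2 for DSIF.

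TFIID recognizes promoters and, with TFIIA and TFIIB, places the polymerase at the start site, while TFIIE, TFIIF and TFIIH complete the initiation complex and open the DNA. Mediator connects sequence-specific activators and repressors with the polymerase, and kinases such as CDK-7, CDK-9 and CDK-12 phosphorylate the C-terminal domain (CTD) of the large subunit as it starts and elongates. In C. elegans embryos this machinery is supplied by the mother, and it is kept inactive at first: the oocyte proteins OMA-1 and OMA-2 hold TAF-4 in the cytoplasm of the earliest blastomeres, and PIE-1 blocks transcription in the germ lineage.

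RNA came from 4 samples of early embryos of the wild-type strain N2, without any transgene, mutation or treatment, and all 4 form 1 group. Each sample is a pool of embryos of mixed early stages that were released by bleaching from gravid hermaphrodites in liquid culture, and the same preparations served for ChIP. The labels give DNase treatment for all 4 RNA samples whereas the methods give it for only some of them, so values are not divided by it. There is no second condition, so levels are described with their spread over samples and no test between conditions was possible. Nothing in the sources says more about how independent the cultures were.

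Levels are log2 intensities of single-color NimbleGen arrays, in which the authors had normalized the arrays by quantiles and combined the 3 probes of a transcript by the Robust Multichip Average (RMA). Because probes differ in affinity, the order of 2 genes by intensity is not necessarily their order by RNA amount, whereas the change of 1 gene between samples does not depend on it. The files hold no background, so a benchmark was set from genes for chemoreceptors of mature neurons, the serpentine receptors: a gene had to exceed, in each sample, the 97.5th percentile of these 1344 genes, a level of 8.47, 8.59, 8.70 and 8.70 in replicates 1 to 4. Of the early embryo markers, 9 of 12 exceeded this level, with mex-5 at 15.06 ± 0.20 (SD, n = 4) and the early zygotic gene pes-10 at 13.23 ± 0.02. The endoderm gene end-1 was among them at 12.18 ± 0.25, while end-3, med-1 and med-2 did not exceed the level (8.45, 7.97 and 8.13). None of 6 vitellogenin genes of the adult intestine exceeded it. Of 5 cuticle genes of later stages, sqt-3 and dpy-7 did, and 13 of 30 major sperm protein genes did.

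RNAs for nearly all of the Pol II machinery were at high levels. All 74 members exceeded the serpentine receptor level in all 4 samples, against 42.0% of all genes. When all genes were ranked by mean level into 5 bins of equal size, 51 members (68.9%) were in the highest bin, which by construction holds 20.0% of genes, 22 were in bin 4 and 1, mdt-21, was in bin 3. The median level of the members was 13.37, with sample medians of 13.29, 13.36, 13.39 and 13.33 (13.34 ± 0.04), against 7.82 over all genes. The quartiles of the group were 12.39 and 14.04, against 5.58 and 12.26 over all genes, and a tail of lower members reached down to 9.27.

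**Figure D1:**
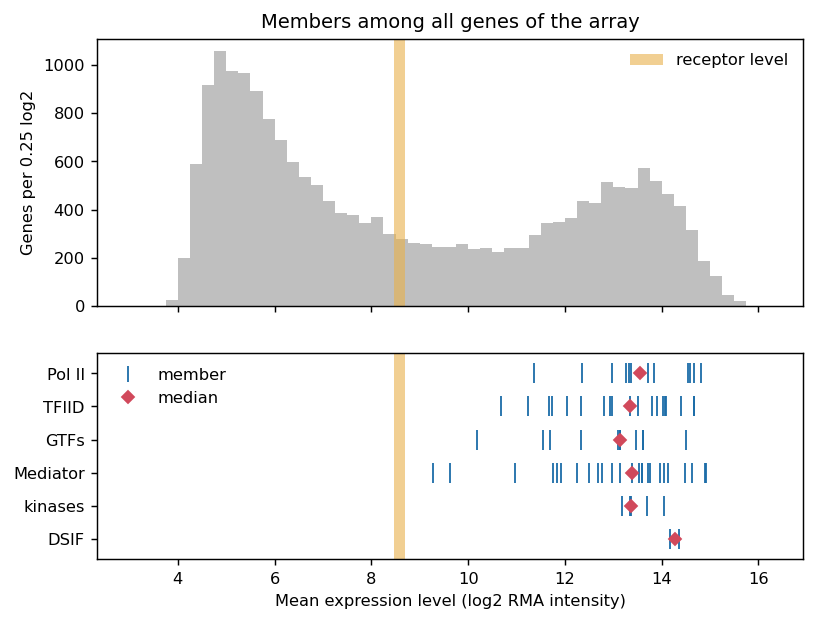
Mean log2 RMA intensity of all 20040 genes as a histogram (upper panel, genes per 0.25 log2) and of the 74 members by complex (lower panel, 1 bar per gene, diamond for the median). All members lie to the right of the serpentine receptor level (band, 8.47 to 8.70 over the 4 samples), and the medians of the complexes lie between 13.13 and 14.27, in the upper mode of the distribution.

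All 12 Pol II subunit genes were high, with a median level of 13.54 (sample medians 13.52 ± 0.06), 10 of them in the highest bin and rpb-9 and rpb-4 in bin 4. The catalytic center is formed by the largest subunits. The gene for the largest, ama-1, had levels of 13.92, 13.91, 13.28 and 13.74 in replicates 1 to 4 (13.71 ± 0.30), so that replicate 3 was its lowest sample by a wide margin. The second largest subunit gene, rpb-2, had levels of 14.43, 14.68, 14.45 and 14.78 (14.58 ± 0.17). The intensity of rpb-2 exceeded that of ama-1 by 0.51 in replicate 1 and by 1.17 in replicate 3. The gap between these genes therefore differed between samples, which probe affinity does not affect.

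Most of the subunits that Pol II shares with RNA polymerases I and III were among the highest of the complex in intensity, but rpb-12 was not. The highest of all was rpb-8, at 14.69, 14.85, 14.87 and 14.82 (14.81 ± 0.08), followed by rpb-6 at 14.82, 14.64, 14.47 and 14.72 (14.66 ± 0.15). Of the others, rpb-5 was at 14.54 ± 0.20, rpb-10 at 13.84 ± 0.27 and rpb-12 at 12.98 ± 0.11. All 5 shared subunits were in the highest bin, with a median of 14.54, against 5 of the 7 subunits of Pol II alone, with a median of 13.32.

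The remaining subunits of Pol II alone lay between 11.36 and 13.37. RPB-3 and RPB-11 form the heterodimer on which the enzyme assembles, and their genes had levels of 13.32 ± 0.08 and 13.37 ± 0.27. In 3 samples their intensities differed by at most 0.14, whereas in replicate 3 rpb-11 was 0.36 higher. RPB-4 and RPB-7 form the stalk that binds emerging RNA. The level of rpb-7 was 13.30, 13.29, 13.19 and 13.30 (13.27 ± 0.05), among the most even of all members, while that of rpb-4 was 11.29, 11.30, 11.75 and 11.10 (11.36 ± 0.27), the lowest of the complex. The gene for RPB-9, which acts in start site choice and fidelity, was second lowest at 12.05, 12.35, 12.75 and 12.29 (12.36 ± 0.29). Both rpb-4 and rpb-9 were highest in replicate 3.

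**Figure D2:**
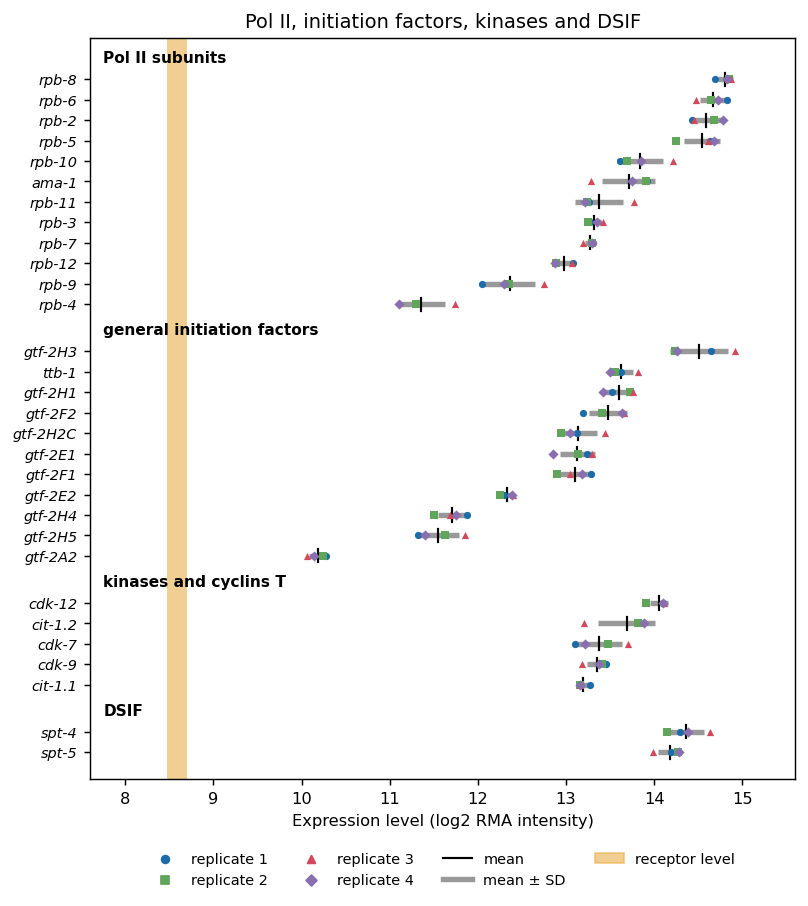
Log2 RMA intensity (x axis) of the genes for Pol II subunits, general initiation factors, kinases with cyclins T, and DSIF in each of the 4 samples (symbols), with the mean (tick) and SD (grey bar). Most genes lie between 13 and 15, gtf-2A2 is the lowest at 10.18, and replicate 3 (triangles) is often at an end of the range, as for ama-1, rpb-11 and cit-1.2.

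All 11 genes of the general initiation factors outside TFIID exceeded the serpentine receptor level, 7 of them in the highest bin, with a median of 13.13 (sample medians 13.12 ± 0.15). TFIIB, which bridges TBP and the polymerase, is encoded by ttb-1, whose level was 13.62, 13.56, 13.82 and 13.50 (13.62 ± 0.14). The small subunit of TFIIA, which stabilizes TBP on DNA, is encoded by gtf-2A2, the lowest gene of the group at 10.28, 10.25, 10.07 and 10.14 (10.18 ± 0.10). Its 4 samples lay close together, so the low value was even across preparations.

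The subunits of TFIIF, which escorts the polymerase to the promoter, were at 13.10 ± 0.17 (gtf-2F1) and 13.47 ± 0.21 (gtf-2F2). Those of TFIIE, which recruits TFIIH, were at 13.13 ± 0.20 (gtf-2E1) and 12.33 ± 0.07 (gtf-2E2). TFIIH carries helicases and the kinase CDK-7, and its core subunit genes were spread widely. The highest was gtf-2H3, at 14.64, 14.23, 14.91 and 14.26 (14.51 ± 0.33), with gtf-2H1 at 13.60 ± 0.17 and gtf-2H2C at 13.14 ± 0.22. The lower ones were gtf-2H4, at 11.70 ± 0.16, and gtf-2H5, at 11.32, 11.62, 11.85 and 11.40 (11.55 ± 0.24), the second lowest gene of the group.

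All 5 genes for CTD kinases and cyclins T were in the highest bin, within a range of 0.87 on the log2 scale and with a median of 13.37. CDK-12, which phosphorylates the CTD during elongation, had a gene level of 14.10, 13.90, 14.11 and 14.10 (14.05 ± 0.10). Its samples coincided apart from replicate 2. The gene for CDK-7, the kinase of TFIIH, was at 13.10, 13.47, 13.70 and 13.21 (13.37 ± 0.27).

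CDK-9 and cyclin T form P-TEFb, which releases the polymerase into elongation. The level of cdk-9 was 13.45, 13.41, 13.18 and 13.37 (13.35 ± 0.12). It rests on 2 transcripts that differed, with 1 at 12.44 ± 0.14 and the other at 14.26 ± 0.12, a wider gap than between any 2 samples. The neighbouring genes cit-1.1 and cit-1.2 on chromosome III both encode cyclin T. For cit-1.2, replicate 3 was far below the others (13.84, 13.82, 13.20 and 13.89, mean 13.69 ± 0.32), and both of its transcripts showed this (12.68 and 13.73 in replicate 3, against at least 13.28 and 14.35 elsewhere). For cit-1.1, the levels were 13.28, 13.16, 13.15 and 13.16 (13.19 ± 0.06), so that its level varied little, and the gap between the 2 genes fell from 0.56, 0.66 and 0.73 in replicates 1, 2 and 4 to 0.05 in replicate 3. Since these are related genes, some probes may detect RNA of both.

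DSIF, the elongation factor that travels with the polymerase, consists of SPT-4 and SPT-5, and both genes were high. The level of spt-4 was 14.29, 14.14, 14.63 and 14.38 (14.36 ± 0.20) and that of spt-5 was 14.19, 14.27, 13.98 and 14.28 (14.18 ± 0.14). In replicate 3 spt-4 had its highest and spt-5 its lowest level.

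All 19 genes of TFIID and the TBP family exceeded the serpentine receptor level, with a median of 13.35 (sample medians 13.25 ± 0.17), 12 in the highest bin and 7 in bin 4. TBP is encoded by tbp-1, at 13.61, 13.80, 13.95 and 13.84 (13.80 ± 0.14). The TBP-like factor gene tlf-1, whose product is needed for transcription of a subset of genes in the C. elegans embryo, was at 13.52, 13.68, 13.47 and 13.34 (13.50 ± 0.14). The intensity of tbp-1 was the higher in 4 of 4 samples, by 0.09 to 0.50, but the ranges of these genes over the samples overlapped. On chromosome I, tlf-1 is the direct neighbour of the Mediator kinase gene cdk-8, which was also in the highest bin.

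The genes for TAF-1 and TAF-4, around which TFIID is built, were steady. The first, for the largest TAF, was at 14.01, 14.06, 14.05 and 13.99 (14.03 ± 0.03), and the second, for a TAF needed for much of embryonic transcription, was at 12.99, 12.96, 12.95 and 12.96 (12.96 ± 0.015). The SD of taf-4 was the smallest of the 74 members. The WD-repeat scaffold gene taf-5 was at 13.91 ± 0.30. In contrast, taf-2, whose product contacts promoter DNA, was the lowest gene of the complex, at 10.95, 10.85, 10.66 and 10.29 (10.69 ± 0.29).

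Many TAFs pair through histone folds. TAF-4 pairs with TAF-12, whose gene was at 14.09 ± 0.10, and TAF-6 pairs with TAF-9, whose gene was the highest of the complex at 14.70, 14.44, 14.86 and 14.71 (14.68 ± 0.17). TAF-10, which pairs with TAF-8 or TAF-3, had a gene level of 14.41 ± 0.11, while its partners were lower, with taf-8 at 12.82 ± 0.22 and taf-3 at 12.54, 12.22, 11.45 and 11.98 (12.05 ± 0.46). The SD of taf-3 was the largest of all members, with replicate 1 at the top and replicate 3 at the bottom. TAF-11 pairs with TAF-13, whose gene was at 11.68, 11.51, 12.38 and 11.37 (11.74 ± 0.45). Here replicate 3 was the high sample. In replicate 3, taf-3 and taf-13 departed from their means in the other samples in opposite directions, by -0.80 and 0.86. Among the other samples both genes had the same order, with replicate 1 highest.

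Several TAFs are encoded by more than 1 gene in C. elegans, and the copies were not alike in intensity. Of the TAF-6 genes, taf-6.1 was at 14.67, 14.67, 14.54 and 14.76 (14.66 ± 0.09), second highest of the complex, and taf-6.2 at 11.67, 11.69, 11.58 and 11.75 (11.67 ± 0.07). Their gap was nearly constant, at 2.99 ± 0.02, with both genes lowest in replicate 3 and highest in replicate 4. For the TAF-7 genes, taf-7.2 was at 12.13, 12.12, 12.76 and 12.32 (12.33 ± 0.30) and the X-linked taf-7.1 at 11.24, 11.29, 11.12 and 11.31 (11.24 ± 0.09). Replicate 3 was the highest sample of taf-7.2 and the lowest of taf-7.1, and the gap rose from at most 1.01 in the other samples to 1.65 there. Among the TAF-11 genes, the X-linked taf-11.1 was at 14.03, 14.01, 14.04 and 14.23 (14.08 ± 0.10), taf-11.3 at 13.16, 13.08, 13.87 and 13.31 (13.35 ± 0.36) and taf-11.2 at 12.88, 12.68, 13.27 and 12.89 (12.93 ± 0.25). Both autosomal copies were highest in replicate 3, while taf-11.1 was not, and the gap between taf-11.1 and taf-11.3 shrank from at least 0.87 to 0.17 in that sample. How far related copies share probes is not given in the sources used here, and the level of each copy is uncertain to that extent.

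**Figure D3:**
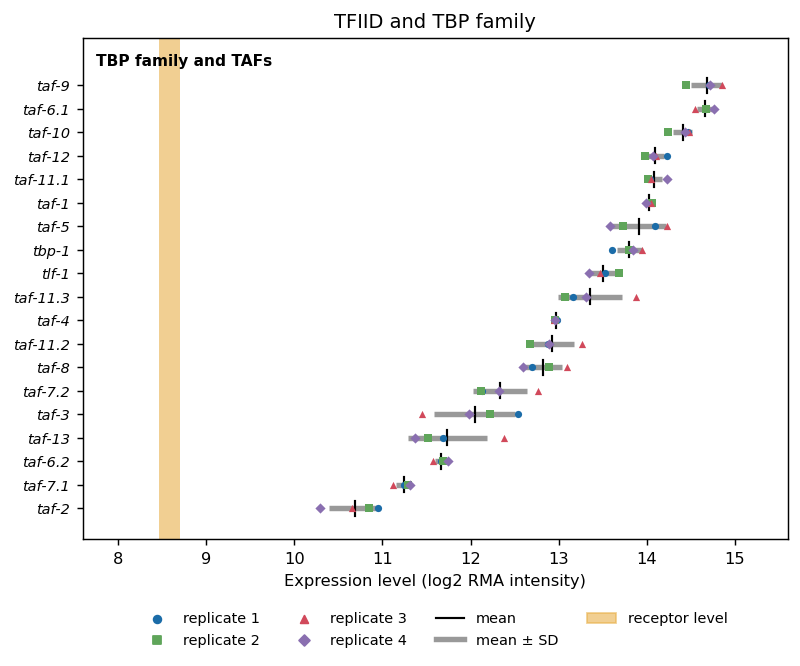
Log2 RMA intensity (x axis) of the 19 genes of TFIID and the TBP family in each of the 4 samples (symbols), with the mean (tick) and SD (grey bar). The copies taf-6.1 and taf-6.2 lie 2.99 apart with little spread, taf-1 and taf-4 hardly vary, and replicate 3 (triangles) is lowest for taf-3 and highest for taf-13, taf-7.2 and taf-11.3.

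All 25 Mediator genes exceeded the serpentine receptor level, 15 in the highest bin and 9 in bin 4, with a median of 13.39 (sample medians 13.34 ± 0.05). Mediator held both the highest and the lowest of the 74 members, a range of 5.65 on the log2 scale. The genes are described by the modules in which structures from yeast and mammals place their counterparts.

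The kinase module, which docks reversibly and can hold Mediator off the polymerase, was high throughout. Its MED12 counterpart is dpy-22, a gene of Wnt signaling and vulval patterning on the X chromosome, with levels of 14.87, 15.18, 14.62 and 15.01 (14.92 ± 0.24), the highest of all members. Its MED13 counterpart is let-19, at 14.01, 13.81, 13.11 and 13.91 (13.71 ± 0.41). The kinase gene cdk-8 was at 14.12 ± 0.11. In replicate 3 both dpy-22 and let-19 were at their lowest, by 0.40 and 0.80 below the mean of the other samples, whereas cdk-8 was not.

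The scaffold gene rgr-1, the MED14 counterpart, was at 13.96 ± 0.13. The tail receives signals from activators. Its gene mdt-15, a coactivator of lipid metabolism, was at 14.15, 14.16, 13.57 and 14.27 (14.04 ± 0.31), and sur-2, the MED23 counterpart that acts downstream of Ras in the vulva, was at 13.60 ± 0.17. Both were lowest in replicate 3. Some subunit genes are found in animals but not in budding yeast, or are only distantly related to yeast genes. Of these, mdt-27 was at 14.63 ± 0.17, mdt-30 at 14.48 ± 0.17, mdt-28 at 12.98 ± 0.20 and mdt-29 at 12.69 ± 0.16.

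The head, which contacts the polymerase, had a median of 13.14. It comprised mdt-8 at 13.59 ± 0.23, mdt-18 at 13.53 ± 0.11, mdt-6 at 13.39 ± 0.09, mdt-22 at 13.14 ± 0.28, mdt-20 at 12.76 ± 0.17, mdt-17 at 11.84 ± 0.25 and mdt-11 at 10.97 ± 0.19. The gene mdt-6, which is essential for embryonic transcription in C. elegans, varied least among them. The middle module, which links head and tail, had the widest spread and the lowest median, 12.09, with 2 of its 8 genes in the highest bin.

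At the top of the middle module, mdt-4 was at 14.96, 14.87, 14.92 and 14.80 (14.89 ± 0.07), second highest of all members, and mdt-9 at 13.76 ± 0.15. In between were mdt-19 at 12.49 ± 0.12, mdt-26 at 12.25 ± 0.15, mdt-10 at 11.92 ± 0.29 and the X-linked mdt-1.2 at 11.76 ± 0.31. The value of mdt-26 averages 3 transcripts that lay far apart, at 13.72 ± 0.13, 12.93 ± 0.28 and 10.10 ± 0.30. At the bottom, mdt-31 was at 9.46, 9.63, 10.26 and 9.17 (9.63 ± 0.46) and mdt-21 at 9.26, 9.43, 9.65 and 8.73 (9.27 ± 0.39). For both, replicate 3 was the highest and replicate 4 the lowest sample. In replicate 4, mdt-21 exceeded the serpentine receptor level by only 0.03, and it did not exceed it when the highest transcript of each gene was taken (73 of the 74 members above). At the 99th percentile of the receptor genes 72 members were above.

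**Figure D4:**
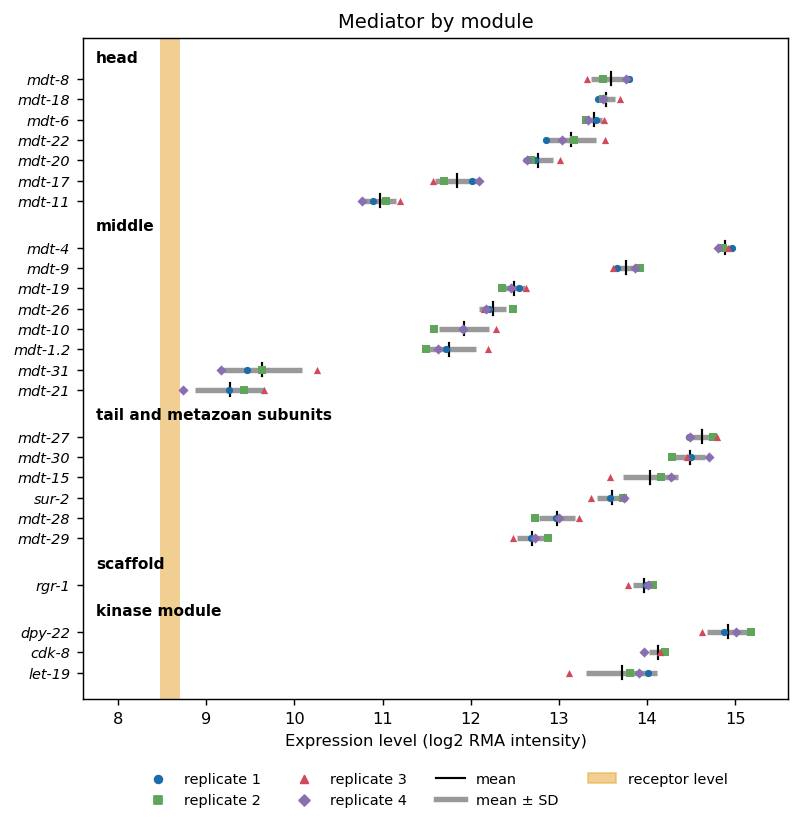
Log2 RMA intensity (x axis) of the 25 Mediator genes by module in each of the 4 samples (symbols), with the mean (tick) and SD (grey bar). The kinase module and the scaffold lie above 13, the middle module runs from 14.89 (mdt-4) down to 9.27 (mdt-21), and mdt-21 in replicate 4 touches the serpentine receptor level (band).

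The members varied less between samples than most genes, and replicate 3 stood apart from the other samples in them. Their median SD was 0.17, against 0.35 over all genes and 0.20 over the genes of the highest 2 bins. The SD was under 0.10 for 14 members and over 0.30 for 12. In 8 members (10.8%, against 7.88% of all genes), 1 sample stood far apart from the other 3 by Dixon's ratio: replicate 3 for rpb-7, rpb-11 and cit-1.2, replicate 2 for cdk-12, rpb-5 and mdt-26, replicate 1 for cit-1.1 and replicate 4 for taf-11.1. Without replicate 3 the median SD of the members was 0.12, whereas it was 0.18 to 0.20 without any other sample. The median SD over all genes was also lowest without replicate 3, at 0.27. It was 0.28 without replicate 4 and 0.35 without replicate 1 or 2, so this drop was not particular to the members. Across the 74 members, Pearson's r was 0.987 to 0.990 between pairs of replicates 1, 2 and 4 and 0.953 to 0.957 between replicate 3 and each of these. Over all genes of the array the order was another, with pairs that include replicate 4 lowest, at 0.968 to 0.973, against 0.985 to 0.992 for the rest. These correlations are across genes of the same samples and serve as a description only.

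In replicate 3, members departed in both directions. Against the mean of the other 3 samples, 10 members (13.5%) were more than 0.5 higher on the log2 scale, compared with 17.9% of all genes, and 5 members (6.76%) were more than 0.5 lower, compared with 17.3%. The higher ones were taf-13 (0.86), mdt-31 (0.84), taf-11.3 (0.69), mdt-1.2 (0.58), taf-7.2 (0.58), rpb-11 (0.54), gtf-2H3 (0.54), rpb-9 (0.52), rpb-4 (0.52) and mdt-21 (0.51). The lower ones were taf-3, let-19, cit-1.2, mdt-15 and ama-1, with differences of -0.80, -0.80, -0.64, -0.62 and -0.58. Both shares were below those of all genes, which include many at low intensity. The departures in replicate 3 thus divided complexes, with ama-1 low beside high rpb-4, rpb-9 and rpb-11, and let-19 and mdt-15 low beside high mdt-31.

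In the other samples such departures were few. Only taf-3 in replicate 1 was more than 0.5 higher (0.66, 1.35% of members against 10.1% of genes), and no member was lower there (11.8% of genes) or departed in replicate 2 (9.81% of genes higher, 12.6% lower). In replicate 4, no member was higher (18.5% of genes) and mdt-21, mdt-31 and taf-2 were lower (4.05% of members, 18.3% of genes), by -0.72, -0.61 and -0.52. Some marker genes also differed in these samples. The cuticle genes sqt-3 and dpy-7 were lowest in replicate 3, at 11.66 and 10.81 against at least 12.95 and 11.71 in the other samples. The cuticle genes bli-1, rol-6 and col-19, below the receptor level in all 4 samples, had deviations of -0.83, 0.81 and 0.03 there. The 30 major sperm protein genes were higher in replicate 4, with sample medians of 8.47, 8.60, 9.11 and 9.66 in replicates 1 to 4. These medians lie near the receptor level. The serpentine receptor genes were also higher in replicate 4, with sample medians of 4.74, 4.74, 4.81 and 5.42. Against the mean of the other 3 samples, the median deviation in replicate 4 was 1.17 for the sperm genes and 0.44 for the receptor genes. The source of these rises was not tested. In these bulk samples, fewer cells of a type and less RNA per cell cannot be told apart, and the part of embryo stage or of other material in the departures of the members was not tested.

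**Figure D5:**
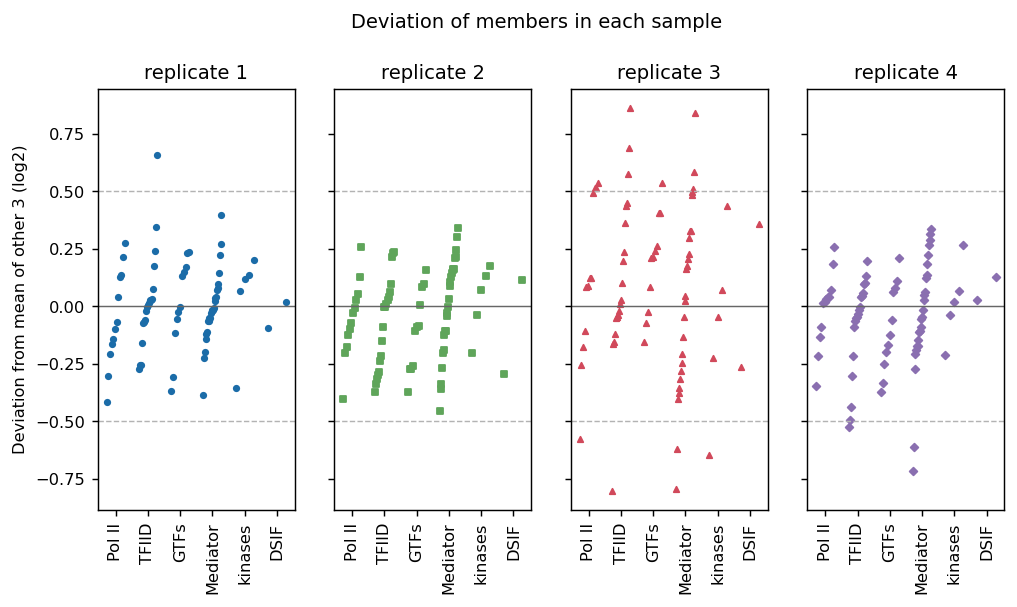
Difference (log2, y axis) between each member's level in 1 sample and its mean in the other 3, by complex, with members in order of the difference within each complex and dashed lines at 0.5 and -0.5. Replicate 3 has 15 members outside the lines, 10 above and 5 below, against 1, 0 and 3 members in replicates 1, 2 and 4.

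The members were unevenly spread over the chromosomes. Chromosome III held 22 members (29.7%, against 13.3% of the genes with a chromosome), chromosome I held 15 (20.3% against 14.2%) and chromosome II held 14 (18.9% against 17.5%). Chromosomes IV and X held 10 and 5, or 13.5% and 6.76% of members, against 16.3% and 13.6% of genes, and chromosome V, with 4854 of these 19380 genes, held 8 members (10.8%). The X-linked members were dpy-22, taf-11.1, taf-3, mdt-1.2 and taf-7.1, with a median level of 12.05, against 13.37 for the 69 autosomal members. Of these 5 genes, 2 were in the highest bin, against 49 of the 69 autosomal members. In the whole array, this bin held 398 of 2644 X-linked genes and 3565 of 16736 autosomal genes. Over all genes the medians were 7.50 on the X and 7.93 on the autosomes.

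Other genes of the pathway, listed by name, were mostly at like levels. Among partners of TFIIH, Mediator and the kinases, 5 of 6 exceeded the serpentine receptor level: the CDK-7 assembly factor gene mnat-1 (14.98 ± 0.34), the cyclin K gene ccnk-1 (13.62 ± 0.30), the helicase gene xpb-1 (13.54 ± 0.11), the cyclin C gene cic-1 (13.33 ± 0.17) and the cyclin H gene cyh-1 (11.13 ± 0.10). The exception was xpd-1, the gene for the other TFIIH helicase, at 7.44, 7.19, 7.47 and 6.87 (7.24 ± 0.28). It was below the receptor level in all 4 samples, in contrast to every core TFIIH gene above. Without a measured background, this does not show that the RNA was absent.

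All 13 genes for elongation, FACT, the Paf1 complex and CTD phosphatases exceeded that level, 11 in the highest bin, with a median of 14.04. The FACT genes hmg-4, hmg-3 and spt-16, whose products move nucleosomes out of the way of the polymerase, were at 15.34 ± 0.03, 14.43 ± 0.10 and 14.04 ± 0.17. Genes of the Paf1 complex were at 14.82 ± 0.14 (rtfo-1), 14.47 ± 0.08 (ctr-9), 13.96 ± 0.12 (leo-1), 13.75 ± 0.08 (cdc-73) and 12.42 ± 0.16 (pafo-1). The SPT6 counterpart emb-5, a histone chaperone, was at 14.42 ± 0.13. Genes for proteins that bind or dephosphorylate the CTD were at 14.11 ± 0.12 (cids-1), 13.95 ± 0.16 (cids-2), 13.20 ± 0.16 (fcp-1) and 12.27 ± 0.33 (ssup-72).

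All 11 genes of RNA polymerases I and III exceeded the receptor level, 9 in the highest bin, with a median of 13.45. The large subunit genes rpoa-1 and rpc-1 were at 13.36 ± 0.20 and 13.45 ± 0.31, and the second subunit genes rpoa-2 and rpc-2 at 14.17 ± 0.22 and 14.48 ± 0.11. The others were brf-1 (14.67 ± 0.06), rpac-40 (14.48 ± 0.10), rpoa-49 (14.10 ± 0.07), rpac-19 (13.20 ± 0.38), rpc-25 (12.86 ± 0.40), rpc-11 (12.18 ± 0.22) and rpoa-12 (12.02 ± 0.36). As with rpb-11, the smaller assembly subunit gene rpac-19 was highest in replicate 3, at 13.77 against at most 13.05 elsewhere.

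The genes whose products hold Pol II back in early blastomeres were high in the same samples. The OMA genes were at 14.49, 14.81, 14.73 and 14.51 (oma-1, 14.64 ± 0.16) and at 14.60, 14.85, 14.92 and 14.71 (oma-2, 14.77 ± 0.14), and pie-1 was at 14.09, 14.12, 14.29 and 14.31 (14.20 ± 0.11). All 3 were in the highest bin, as were taf-4, cdk-9, cit-1.1 and cit-1.2, whose products are the known points at which these repressors act.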

How the data were processed

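RNA of 4 early embryo preparations was measured on single-color NimbleGen arrays. Per the labels and the methods, the authors applied quantile normalization and RMA, and they deposited linear intensities, 1 for each of 23180 transcripts. The software version, the array's gene annotation and its build are not named in those sources. The series table held the same intensities (0 of 92720 values differed) and served as a check. Intensities were converted to log2 with no pseudocount and no filter on low values, transcripts of 1 gene were averaged into 20040 genes, and genes were averaged over samples. Symbols and chromosomes came from RefSeq (assembly WBcel235), where 19380 genes had an entry and each member 1. 64 members had 1 transcript on the array and 10 had several.

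The members, lists and thresholds were chosen with earlier results of these data known, and the Mediator modules, the subunit pairs and the threshold of 0.5 with the levels in view. Every member is named once, with values in each sample for the 2 highest and 2 lowest of each complex, the 5 with the largest SD and gene copies, and for some further members chosen after their values were seen. Medians, SDs and counts were computed with Python 3.11.15, numpy 2.4.6 and pandas 2.3.3, and figures with matplotlib 3.10.9. The level and threshold steps were tested on simulated data. Alternatives were each sample left out, the highest transcript, the median over samples, linear averages, the series table, other receptor percentiles and other numbers of bins. The number of arrays limits the precision.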

Additional observations from a re-analysis of the deposited data

Results flagged for a closer look

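For 8 of the 74 members (10.8%, against 7.88% of all genes), 1 of the 4 samples stood far from the other 3, as measured by its gap to the nearest sample divided by the whole range (tested against Dixon's 95% critical value). Chance flags about 1 in 20 groups of this size. The ratio was highest for cdk-12 (0.972, replicate 2 low) and cit-1.1 (0.947, replicate 1 high), whose ranges were small. Replicate 3 was the distant sample for rpb-11 (0.904, high), cit-1.2 (0.904, low) and rpb-7 (0.900, low). It was replicate 4 for taf-11.1 (0.858, high) and replicate 2 for rpb-5 (0.838, low) and mdt-26 (0.836, high). Of the 7 sets of sample medians, those of Mediator were flagged (0.884), with replicate 1 at 13.42 and the others at 13.31 to 13.32, a gap of about 0.1 on the log2 scale.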

How the results depend on the processing

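All 74 members exceeded the serpentine receptor level when any 1 sample was left out (74 in each case), with the series table and at the 95th percentile of receptor genes. By their construction, these settings could not lower the count. With the highest transcript of each gene 73 exceeded the level, all but mdt-21, and at the 99th percentile 72 did, all but mdt-21 and mdt-31. The number in the highest bin was 51 to 52 with 1 sample left out, 58 with 4 bins and 24 with 10 bins, since the highest bin is then narrower. The median level of the members ranged from 13.32 to 13.42 with 1 sample left out, and that of TFIID from 13.18 (without replicate 3) to 13.44. With the highest transcript of each gene, the median was 13.43 for the members, 13.53 for Mediator and 14.05 for kinases and cyclins T, and the last was 13.63 with linear averages. Of 592 values of single members under these alternatives, 586 moved by no more than 1 SD. The exceptions were cdk-9, mdt-26, cit-1.1 and cit-1.2 with the highest transcript and cdk-9 and mdt-26 with linear averages, all genes with several transcripts. For most of the 592 values this outcome was fixed in advance. Leaving out 1 of 4 samples, or taking their median, cannot shift a mean by more than 1 SD. The series table held the same values, and the highest transcript changes nothing for the 64 members with 1 transcript. The spread without each sample was added after seeing the data. No genes named gtf-3 matched, so the alternative without them and the planned list of Pol III factors had no members. Gene and protein lengths were not used here. No paired analysis was possible because all 4 samples belong to 1 group.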
